A study of Mus musculus with 12 samples.

Results

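Pre-pro-B cells are the bone marrow progenitors in which B lymphopoiesis stops when the transcription factor EBF1 is missing. The state of these cells before EBF1 or PAX5 is supplied was read from the 3 arrays titled as control (MigR1) retrovirus in the first set, out of 12 Affymetrix arrays in all. The arrays were chosen by their titles, and no measured value entered the choice. The 3 control arrays of the second set served to check how far a level depends on the deposited summarisation. The 3 arrays of the EBF (Mig-EBF1) retrovirus in the first set served for comparison, and the 3 arrays of the PAX5 (Mig-PAX5) retrovirus were used for the level of Ebf1 alone. Cells of every group were Ebf1-/- progenitors of strain C57BL/6, so the controls carry the mutation too. They grew on OP9 cells, a mouse bone marrow stromal line, in medium with 4% serum, SCF and Flt3L at 10 ng/ml each and IL-7 at 5 ng/ml. GFP+ cells were sorted 2 days after infection. Baseline here therefore means cultured cells that carry the empty virus. The labels do not say whether equal-titled arrays came from separate cultures or animals, so the spread between arrays may be technical.

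Progenitors on the way to B cells first express a broad set of transcription factors that several blood lineages share, among them Ikaros, PU.1, the E proteins and Myb, together with the receptors Flt3 and IL-7R. EBF1 acts below these factors: it switches on genes of the pre-B-cell receptor and, with PAX5, closes other fates. Cells without EBF1 keep the early program and can still give rise to T, natural killer, dendritic and myeloid cells.

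Values are array intensities on a linear scale as deposited, and the number of arrays, 3 in a group, limits their precision. Each of 18193 genes was represented by its brightest probe set, and ranked within each array as a percentile in which 100 is the brightest gene. Probe sets differ in how strongly they bind, so a rank gives a gene's position on the array and does not order transcripts of different genes. A gene was called above background where its intensity exceeded, on all 3 arrays, the 95th percentile of 76 chemosensory receptor genes, which blood progenitors are not known to use; that level was 63.0, 53.2 and 62.5 on arrays 1, 2 and 3. The call covered 9862 genes, or 54.2% of all genes. A stricter level, the 95th percentile of 45 genes of unrelated tissues such as liver, lens and muscle, was 121, 189 and 129, and left 7727 genes, or 42.5%. Since 7 of those 45 genes exceeded the first level, passing it alone does not establish that a transcript is made in these cells.

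In all, 29 lists of lineage regulators, receptors and pathway genes held 573 different genes, of which 523 were measured. Of these, 325 (62.1%) were above background and 245 above the stricter level. Each list count below is to be held against the shares of all genes, 54.2% above background and 42.5% above the stricter level. Median intensity over all probe sets was 56.6, 58.4 and 55.1 on the 3 arrays. Control arrays with the same number in both sets differed by a robust SD of 0.0345 to 0.0970 on the log2 scale over 7313 bright genes, against 0.275 to 0.368 for control arrays of unequal number from different sets. The titles do not say whether control arrays of equal number are the same hybridisations, so the second set is not counted as further replicates. The same call was reached in both sets for 96.4% of genes and for 501 of the 523 list members. Among the members, 37 differed by over 1 on the log2 scale between the sets. The second-set mean or the difference is given beside each of them that is described. These are bulk samples, in which fewer cells of a type and less RNA per cell cannot be told apart.

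**Figure D1:**
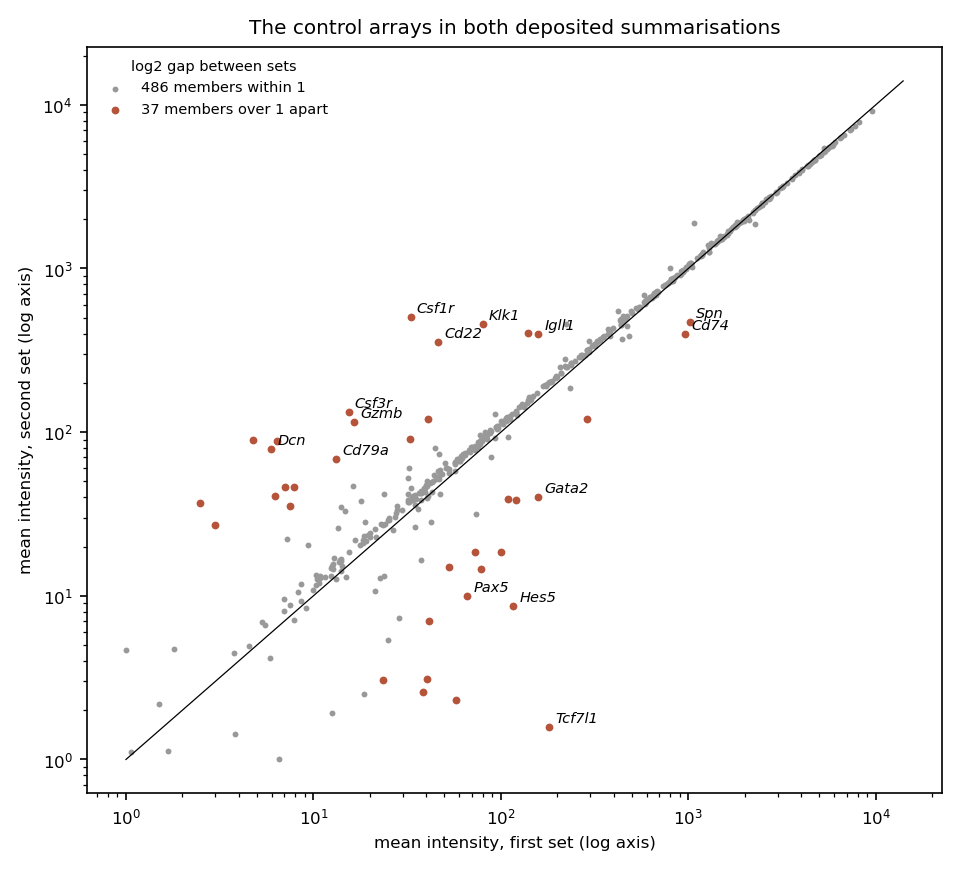
Mean intensity of each of the 523 list members on the 3 control arrays as deposited in the first set (x, log axis) and in the second set (y, log axis), with the line of equality. The 486 grey members lie within 1 log2 unit of it, and 37 red members do not, among them Csf1r and Cd22 above the line and Tcf7l1, Hes5 and Pax5 below it.

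**Figure D2:**
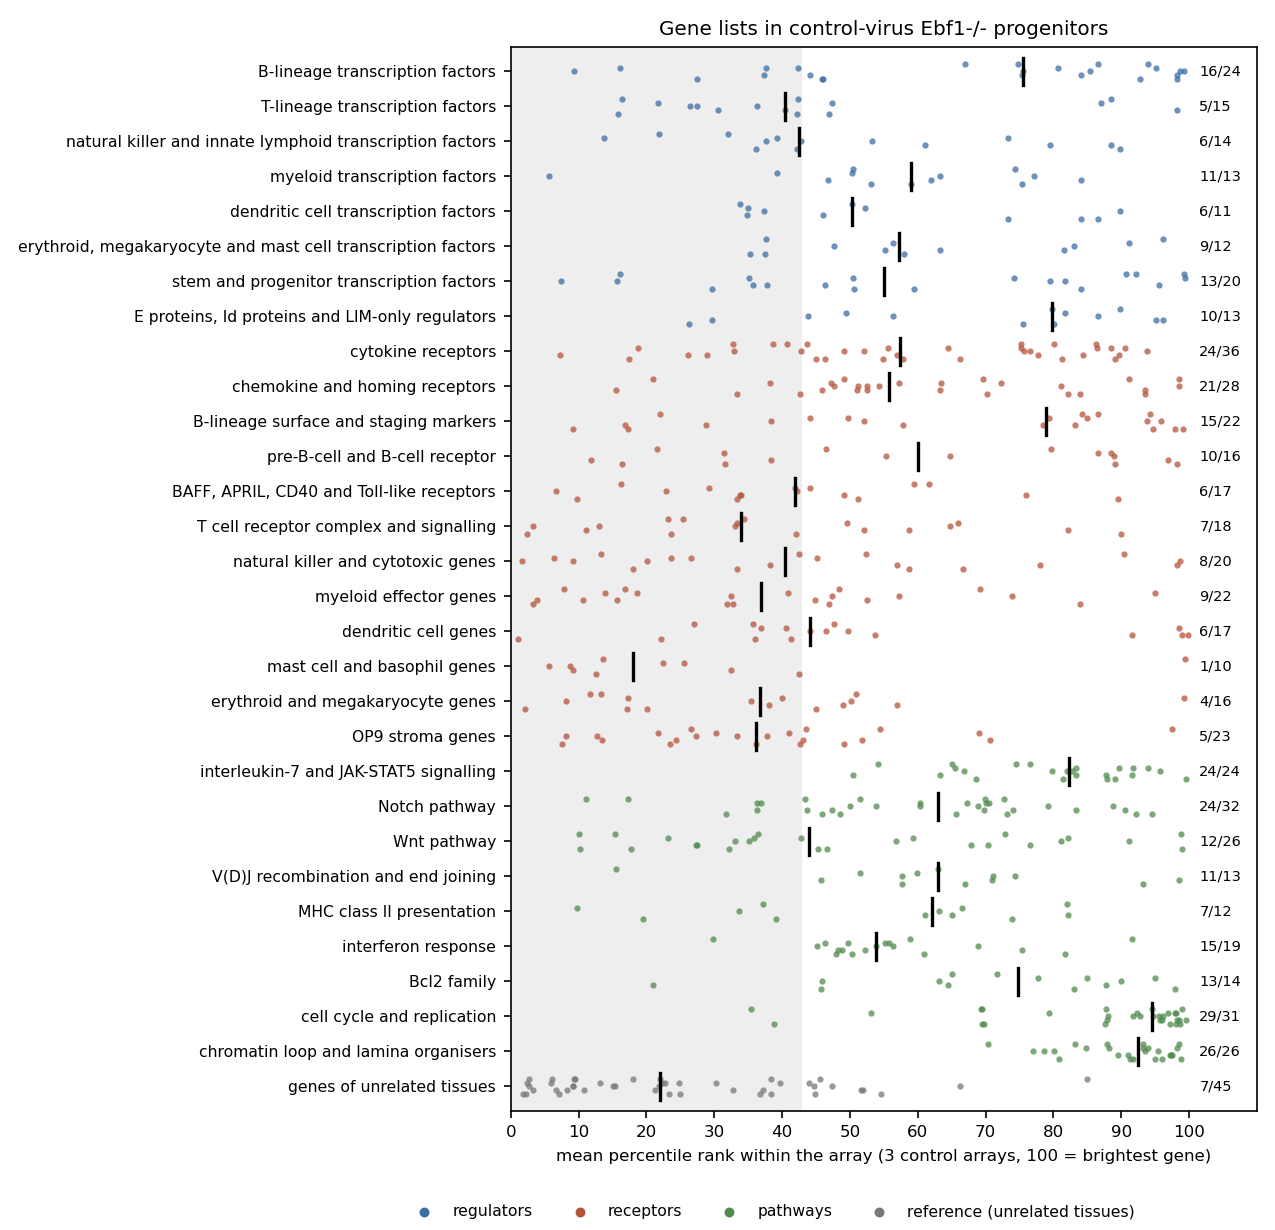
Mean percentile rank within the array, over the 3 control arrays, of every measured member of the 29 lists and of the genes of unrelated tissues (1 point per gene, 100 = brightest gene). Black bars mark list medians, the grey area ends at the mean rank of the background level, and the figures on the right give members above background on all 3 arrays over members measured. Cell cycle, chromatin and interleukin-7 signalling genes lie far to the right, with medians of 94.5, 92.4 and 82.4, and mast cell genes to the left, with a median of 18.

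The mutated gene was itself among the bright ones. Ebf1 read 2027, 2173 and 2148 on control arrays 1, 2 and 3, at a mean percentile of 92.8. On the arrays of the EBF1 virus it read 1886, 2477 and 1917, on those of the second control set 1934, 2083 and 1943, and on those of the PAX5 virus 2071, 1893 and 1940.4, so the groups overlapped. Each of its 5 probe sets was above background on all 3 control arrays. The sources used here do not say where these probe sets lie relative to the mutation or to the part that the virus carries, so the gene checks neither label.

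Many B-lineage transcription factors known to act before or beside EBF1 ranked high on the arrays, whereas Pax5, Foxo1 and Pou2af1 were at or near background. The list had 16 of 24 measured members above background and 15 above the stricter level, with a median percentile of 75.5. Sox4, an HMG-box factor needed by early B progenitors, read 6568, 5721 and 7241 (6509.7 ± 762, SD, n = 3). Ikzf1, which encodes Ikaros, a zinc finger factor of lymphoid specification, read 5449, 5237 and 5225. Mef2c, a MADS-box factor of lymphoid progenitors, read 4577, 4617 and 4897, and Myb, a factor that early lymphocytes need to survive, read 5186, 3819.8 and 5144. All 4 ranked above the 98th percentile on average. Runx1, a partner of Ikaros and EBF1 in early lymphocytes, read 1289, 1014 and 1284. Spi1, which encodes PU.1 and serves both myeloid and lymphoid fates, read 632, 712 and 527 (624 ± 93.2, SD, n = 3).

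Pax5, the factor that fixes B cell identity, read 65, 54.3 and 78.3, slightly over the background level of each array. It was not above background in the second set, where its mean was 9.93 ± 2.56 (SD, n = 3), a log2 difference of -1.65. The other Pax5 probe set was not above background on all 3 arrays of the first set. Foxo1, a forkhead factor that acts with EBF1 and E2A, read 102.5, 71.5 and 58.1 and passed the background level on arrays 1 and 2 alone. Pou2af1, a coactivator of octamer factors in B cells, read 7.67, 8.14 and 5.77, and Zfp521, a zinc finger protein that inhibits EBF1, read 11.2, 13.7 and 14, both below background on every control array.

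E proteins, which bind DNA as dimers and direct lymphoid genes, were present together with an inhibitor of theirs. In the list of E proteins, Id proteins and LIM-only regulators 10 of 13 members were above background and 8 above the stricter level, with a median percentile of 79.8. Tcf12, which encodes the E protein HEB, read 2873, 2950.3 and 2465, and Tcf3, which encodes E2A, read 547, 521 and 908, highest on array 3. Id2, which blocks E proteins and is needed for innate lymphoid cells, read 1756, 1853 and 1306, while Id3 and Id4, inhibitors of the same family, read 30.4, 22.9 and 17.8 for Id3 and 23.7, 25.8 and 36.4 for Id4, all below background. For Id2 the 3 probe sets were unequal, and 1 of them was not above background on all arrays. Id1, also of this family, was above background in the first set (100 ± 28.3, SD, n = 3). It was not in the second (18.6 ± 9.11), a log2 difference of -1.75. Lyl1, a basic helix-loop-helix partner of E proteins in progenitors, read 3297, 2772 and 3539, and Lmo2, a LIM-only bridging protein, read 1179.7, 809 and 828.

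Stem and progenitor regulators ranged from the top of the arrays to below background. The list had 13 of 20 members above background and 10 above the stricter level, with a median percentile of 55.0. Hoxa9, a homeobox factor of early progenitors, read 7474, 7542 and 6858 (7291 ± 377, SD, n = 3), at a mean percentile of 99.4. Mycn, a Myc family growth regulator, read 7301, 6064 and 6991, and Myc itself read 695, 1557 and 1227, lowest on array 1. Hoxa5, a neighbour of Hoxa9 in the same cluster, read 3061, 2753 and 2973, whereas Hoxb4, a homeobox factor of stem cells, read 27, 27.1 and 29.8, below background. Meis1, the usual partner of Hoxa9, read 95.5, 112 and 113, above background but below the stricter level on each of the 3 arrays. Its other probe sets were not above background on all 3 arrays. Mecom, a zinc finger factor of stem cells, and Lin28b, an RNA-binding protein of fetal progenitors, read 9.67, 13.2 and 15 for Mecom and 6.37, 3.97 and 6.12 for Lin28b, below background on each array.

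**Figure D3:**
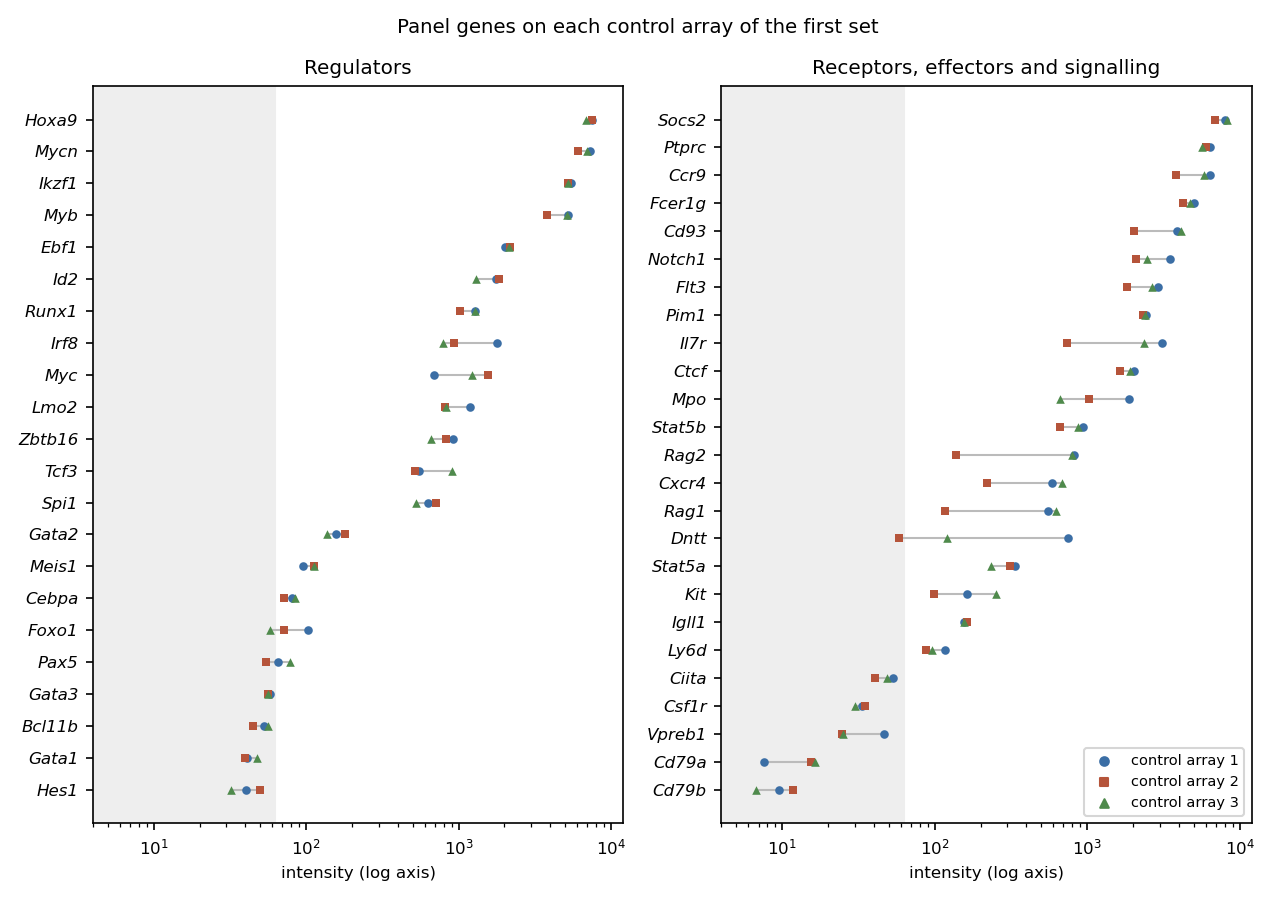
Intensity (log axis) of a fixed panel of regulators (left) and of receptors, effectors and signalling genes (right) on each of the 3 control arrays, with a line from the lowest to the highest array. The grey area ends at the highest background level of the 3 arrays, 63.0. Il7r, Rag1, Rag2 and Cxcr4 are lowest on array 2 and Dntt is highest on array 1.

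Several T-lineage and innate lymphoid regulators were bright, but Gata3, Bcl11b, Eomes and Tbx21, which define these fates, were not. Of the T-lineage list 5 of 15 members were above background and 3 above the stricter level, with a median percentile of 40.5. The 3 were Satb1, a chromatin organiser of thymocytes, at 5053, 4454 and 4522, Tox, an HMG-box factor of T and innate lymphoid precursors, at 1317, 1826 and 1338, and Runx3, a factor of killer lymphocytes, at 1106, 1739 and 1218. Gata3 and Bcl11b, which establish T cell identity, read 57.9, 56.2 and 56.4 for Gata3 and 52.7, 45 and 56 for Bcl11b. Gata3 passed the background level on array 2 alone, and Bcl11b on none. Hes1, a target of Notch, read 40.4, 49.9 and 32.3, and the lowest members, Themis of thymocyte selection and Ikzf2, an Ikaros relative, read 18.6, 13.3 and 8.61 for Themis and 7.62, 15 and 15.4 for Ikzf2. In the natural killer and innate lymphoid list 6 of 14 members were above background and 5 above the stricter level, with a median percentile of 42.5. Zbtb16, which encodes PLZF, a factor of innate-like lymphocytes, read 925, 829 and 656. Eomes and Tbx21, the T-box factors of natural killer cells, were below background at 15.9, 3.51 and 13.3 for Eomes and 19.6, 23.1 and 13.5 for Tbx21.

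Irf8, Cebpb and Spi1 ranked highest among the myeloid regulators. Of the list 11 of 13 members were above background, but 6 above the stricter level, with a median percentile of 59.0. Irf8, an interferon regulatory factor of dendritic, monocytic and B cells, read 1779.9, 938 and 788, highest on array 1. Cebpb, a C/EBP factor of activated myeloid cells, read 491, 1308 and 527, highest on array 2. Cebpa, the C/EBP factor that drives granulocyte and monocyte fate, read 80.8, 71.6 and 84, little over background, and Maf and Pparg, factors of macrophages, read 37.9, 52.3 and 54.6 for Maf and 4.85, 2.5 and 3.93 for Pparg, both below it. In the dendritic list 6 of 11 members (54.5%) were above background, near the 54.2% of all genes. Of these members 4 were above the stricter level, and the median percentile was 50.3. Tcf4, the E protein that directs plasmacytoid dendritic cells, read 1415, 1155 and 1298. Batf3 and Zbtb46, factors of conventional dendritic cells, read 45.6, 32.2 and 34.3 for Batf3 and 34.7, 37.3 and 32.5 for Zbtb46, below background on all 3 arrays.

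The erythroid, megakaryocyte and mast cell list had 9 of 12 regulators above background and 5 above the stricter level, with a median percentile of 57.2. Its brightest members beside Lyl1 were Fli1, an Ets factor of megakaryocytes and lymphocytes, at 2008, 1889.5 and 1571, and Gfi1b, a repressor of blood progenitors, at 1069, 1195 and 801. Gata1, the master regulator of red cells, read 41, 39.5 and 48, and Nfia, which favours the red cell fate, 35.4, 40.3 and 37.5, both below background. Gata2, which serves stem and mast cells, read 156, 179 and 138 but 40.0 ± 13.3 (SD, n = 3) in the second set, where it was not above background. Its other probe set read 3.88, 6.74 and 5.85 in the first set, below background.

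The receptors of Flt3L, IL-7 and SCF, the factors in the medium, were above background. Of 36 measured receptors 24 were above background and 18 above the stricter level, with a median percentile of 57.3. Flt3, the receptor of Flt3L, read 2927, 1823 and 2672 (2474 ± 578, SD, n = 3). Il7r, the alpha chain that binds IL-7, read 3111, 737 and 2362 (2070.1 ± 1213, SD, n = 3), with array 2 well below the other arrays in both of its probe sets. Kit, the receptor of SCF, read 162, 99.4 and 253, below the stricter level on array 2, and 1 of its 2 probe sets was not above background. Crlf2, which pairs with Il7r to bind TSLP, read 1872, 1803 and 1239, and Ifnar2, a chain of the type I interferon receptor, read 1848, 2166 and 1312. Receptors known from other programs were found on both sides of the background level. Above it were Il18r1, a chain of the interleukin-18 receptor, at 1648, 1081 and 1120.1, and Csf2ra, a chain of the GM-CSF receptor, at 468, 441 and 208, lowest on array 3. The lowest members were Il9r, a growth factor receptor of T and mast cells, at 9.73, 1.55 and 4.71, and Il1r1, the receptor of interleukin-1, at 9.31, 13.7 and 19.7. Csf1r, the receptor of macrophage colony-stimulating factor, read 33.5, 35.2 and 30.2. In the second set it had a mean of 505 ± 34.0 (SD, n = 3), a log2 difference of 3.41. Its level at baseline therefore depends on which deposited set is read.

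Of 28 chemokine and homing receptors 21 were above background and 13 above the stricter level, with a median percentile of 55.8, and 5 ranked in the top 10% of genes. Itga4, the alpha chain of the integrin VLA-4 that holds progenitors to stroma, read 5672, 4549.7 and 5028. Ccr9, the receptor of CCL25 that guides progenitors to the thymus and also marks plasmacytoid dendritic cells, read 6381, 3841 and 5827, and 1 of its 5 probe sets was not above background. Cd44, the hyaluronan receptor, read 2048, 2376 and 2422. Cxcr4, the receptor of the marrow chemokine CXCL12, read 589.9, 219 and 680.2, lowest on array 2, at a mean percentile of 70.2. The lowest members were below background: Cxcr6 of activated lymphocytes read 16.4, 23.5 and 13.4, and Cxcr2 of neutrophils 10.6, 6.4 and 21.2.

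The labelled cell type was held against its markers. Of 22 B-lineage surface and staging markers 15 were above background and 12 above the stricter level, with a median percentile of 78.9. Ptprc, whose B220 form marks pre-pro-B cells, read 6434, 6052 and 5693. Cd93, the AA4.1 antigen of early progenitors, read 3864, 2032 and 4127, and Cd81, a tetraspanin of the lymphocyte surface, 4135, 4404 and 4334. Cd24a, a surface antigen used to stage developing B cells, read 1017, 1751 and 1197, and Ly6d, which separates B-biased from broader lymphoid progenitors, read 118, 87.7 and 95.5, little above background. Below background were Ms4a1, which encodes CD20, at 14.5, 22.4 and 19.3, and Fcer2a, which encodes CD23, at 19.9, 14 and 7.84. Bst1, a stromal and pro-B cell ectoenzyme, was also below it at 5.11, 13.2 and 2.64. The calls of Cd22 and Siglecg, of the same list, changed between the sets. Cd22 was not above background in the first set (46.3 ± 11.8, SD, n = 3) but was in the second (353 ± 60.1). Siglecg was above it in the first set (121 ± 8.68) and not in the second (38.6 ± 8.19). Ly6a was not analysed here. With Flt3 and Il7r above background, these levels did not go against the label, but they do not single it out. Ly6d was below the stricter level on each array, and the forms of Ptprc were not told apart. Ccr9 and Cox6a2 of the dendritic cell list and Mpo of the myeloid list were above the stricter level as well.

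Several signalling enzymes of the pre-B-cell receptor were above background. The kinase gene Prkcb of the same list was not, nor were Cd79a, Cd79b and Vpreb1. The list had 10 of 16 members above background and 8 above the stricter level, with a median percentile of 60.0. Ighm, the mu heavy chain locus, which is known to be transcribed before it rearranges, read 6140.5, 3384 and 6289, lowest on array 2. Plcg2, the phospholipase that passes on the receptor's signal, read 4000.4, 3731 and 3052, and Fyn, a Src family kinase, read 1703, 1657 and 1264. Cd79a and Cd79b, the signalling chains, read 7.59, 15.5 and 16.5 for Cd79a and 9.56, 11.7 and 6.69 for Cd79b, below background on every control array. Cd79a was also below background in the second set, at 68.2 ± 10.5 (SD, n = 3).

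The surrogate light chain, made of lambda 5 from Igll1 and the product of Vpreb1, was seen at low or background level. Igll1 read 156, 164 and 155, above background with little spread, while its other probe set was not above it, and the mean in the second set was 397 ± 11.4 (SD, n = 3). Vpreb1 read 46.3, 24.8 and 25, below background on each array. Their promoters are shown because both genes are dim in these cells and are called higher once EBF1 is added, as described at the end. The windows run from 250 bases before to 50 after the start of each gene (RefSeq, GRCm38.p6), and capitals mark a match to CCCNNGGG, the core of the sequence that EBF1 is known to bind, which reads the same on both strands. The Igll1 window is chr16:16863936-16864235 and the Vpreb1 window chr16:16869206-16869505, both on the minus strand.
Igll1: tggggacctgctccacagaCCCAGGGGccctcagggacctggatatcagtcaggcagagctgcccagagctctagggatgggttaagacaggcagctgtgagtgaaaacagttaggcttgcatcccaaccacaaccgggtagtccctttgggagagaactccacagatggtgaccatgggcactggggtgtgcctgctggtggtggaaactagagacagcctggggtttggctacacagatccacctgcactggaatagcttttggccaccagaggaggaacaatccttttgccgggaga
Vpreb1: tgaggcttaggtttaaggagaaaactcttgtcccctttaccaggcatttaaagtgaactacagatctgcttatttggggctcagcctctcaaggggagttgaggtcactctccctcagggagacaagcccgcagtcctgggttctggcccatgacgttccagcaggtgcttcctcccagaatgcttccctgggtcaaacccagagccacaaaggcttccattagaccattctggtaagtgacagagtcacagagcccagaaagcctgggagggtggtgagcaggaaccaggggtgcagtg
Igll1 held 1 match, 231 bases before its start, and Vpreb1 held 0 in this window. Of 32851 promoter windows of this length 4491, or 13.7%, held the motif. A match is a description of the letters and not a site.

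Receptors that sense B cell survival factors and microbes were mostly at background: in the BAFF, APRIL, CD40 and Toll-like list 6 of 17 members were above it and 4 above the stricter level, with a median percentile of 42.0. The exceptions were led by Tnfrsf13b, which encodes TACI, at 1919.6, 1273 and 1673, the Toll adaptor Myd88 at 797, 545 and 619, and Tlr7, a sensor of single-stranded RNA, at 399.8, 213 and 195. Tlr8, its close relative, and Tlr12, a sensor of profilin-like proteins, read 6.46, 6.64 and 9.41 for Tlr8 and 1.86, 5.67 and 6.77 for Tlr12. In the second set Tlr12 had a mean of 89.9 ± 6.91 (SD, n = 3) and was called above background.

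Effector genes of other lineages were for the most part dim in the first set, with 1 or more bright genes in each list. In the T cell receptor list 7 of 18 members were above background and 4 above the stricter level, with a median percentile of 33.9. Cd28, a costimulatory receptor, read 2290.0, 1204 and 1719, and Thy1, a surface antigen of T cells and early progenitors, 627, 1284 and 1119. Lat, an adaptor of the T cell receptor, read 259.8, 413 and 386. The coreceptor genes Cd4 and Cd8b1, lowest of the list, lay near the floor of the values. They read 3.41, 1 and 1 for Cd4 and 1.11, 1.74 and 2.2 for Cd8b1. Cd8a, a further coreceptor gene of the list, was above background. Among natural killer and cytotoxic genes 8 of 20 were above background and 5 above the stricter level, with a median percentile of 40.4. Their brightest members were the signalling adaptors Tyrobp and Fcer1g, which myeloid and plasmacytoid dendritic cells share, at 6178, 5114 and 4655 for Tyrobp and 5019, 4244 and 4722 for Fcer1g. Il18rap, a chain of the interleukin-18 receptor, read 1848, 1736 and 1513, whereas the granzyme gene Gzmc and the receptor gene Klrk1 of killer cells read 6.1, 2.36 and 5.07 for Gzmc and 1, 1.19 and 1 for Klrk1.

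Of myeloid effector genes 9 of 22 were above background and 4 above the stricter level, with a median percentile of 36.9. In the second set 12 were above background, with a median percentile of 46.3. The calls gained there were those of Csf1r, Fcgr1 and Ms4a3. Fcgr3, an Fc receptor of myeloid and killer cells, read 3195, 2189 and 2850.2. Mpo, the myeloperoxidase of granulocyte progenitors, read 1876, 1034 and 660.1, highest on array 1, and Ctss, a lysosomal protease, read 662, 1056 and 255, lowest on array 3. Among late granule genes Ngp was above background at 194, 182 and 185, though above the stricter level on arrays 1 and 3 alone, while Ltf and Camp, the lowest members, read 1, 1 and 7 for Ltf and 1, 5.45 and 1 for Camp. Ltf and Camp were also below it in the second set, though higher there by 1.20 and 1.53 on the log2 scale with the added constant.

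The dendritic cell list had 6 of 17 members above background and 4 above the stricter level, with a median percentile of 44.2. Its leading genes ranked near the top of the arrays: Plac8, a small protein of lymphoid and plasmacytoid cells, read 9444, 9427 and 9605, and Cox6a2, a respiratory subunit known from plasmacytoid dendritic cells, 5503, 6328 and 5592. Siglech, also of this list, was not above background on all 3 arrays, and its array 1 stood over 1 log2 unit above the others. Markers of conventional dendritic cells were at the floor or below background, with Xcr1 at 1, 1 and 1 and Clec10a at 23.7, 16.9 and 15.7. Of the mast cell and basophil list 1 of 10 members was above both levels, with a median percentile of 18. It was Srgn, the proteoglycan core of granules in many blood cells, at 7592, 7169 and 7253. The protease gene Mcpt4 read 5.31, 2.02 and 4.14, and Hdc, which makes histamine, 2.74, 10 and 6.78. Of the erythroid and megakaryocyte list 4 of 16 were above background, 1 above the stricter level, and 2 above background in the second set, with a median percentile of 36.8. Tfrc, the transferrin receptor of dividing cells, read 6144, 6773 and 6465. Itga2b and Pf4 of the platelet lineage read 172, 169.7 and 204 for Itga2b and 109, 108 and 112 for Pf4, and Alas2, which starts haem synthesis in red cells, 2.48, 1 and 1. Pf4 was lower in the second set, at 39.1 ± 9.88 (SD, n = 3), and no longer above background.

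Transcripts of the interleukin-7 pathway were above background throughout: all 24 measured members were above background and 22 above the stricter level, with a median percentile of 82.4. The transducers Stat5a and Stat5b read 338, 311 and 236 for Stat5a and 940.0, 667 and 872 for Stat5b. The highest members were target genes of STAT5: Socs2, a feedback inhibitor, read 8082, 6889 and 8266, at a mean percentile of 99.5, Ccnd2, which encodes cyclin D2, read 2202, 4139 and 3134, and Pim1, a survival kinase, 2434, 2314 and 2392. The lowest members, the feedback genes Socs1 and Socs3 read 116, 162 and 153 for Socs1 and 205, 79.4 and 76.6 for Socs3, above background but not above the stricter level on all 3 arrays. Il2rg was not analysed here.

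In the Notch pathway the receptor Notch1 and its protease Adam10 were above background. Of 32 members 24 were above background and 18 above the stricter level, with a median percentile of 63.0. Notch1, the receptor that directs T cell fate, read 3487, 2089 and 2469, Adam10, the protease that cleaves it, 1817, 1760.0 and 1604, and Tle3, a corepressor, 1878, 2179 and 1894. The ligand Dll1 and the coactivator Maml2 read 17, 11.1 and 14 for Dll1 and 6.76, 9.5 and 9.48 for Maml2, below background, as was the target Hes1. The targets Hes5 and Hey1 read 117, 132 and 98.6 for Hes5 and 66.3, 88.8 and 69.1 for Hey1. Both were above background in the first set and not in the second, the only members of the list whose call changed. Hes5 had a mean of 8.7 ± 6.765 (SD, n = 3) in the second set, a log2 difference of -2.45. The mean percentile of Hey1 moved little, from 45.9 to 44.7. The Wnt list had 12 of 26 members above background and 11 above the stricter level, with a median percentile of 44.0. Ctnnb1, which encodes beta-catenin, and the kinase genes Csnk1a1 and Gsk3a that control it read 6164, 5671 and 5865 for Ctnnb1, 5929, 5871 and 5109 for Csnk1a1 and 1952, 1771 and 1748 for Gsk3a. Axin2, a feedback target of the pathway, read 2.84, 14.6 and 6.3, and the receptor gene Fzd8 14.1, 7.16 and 2.3, below background. Fzd8 was at 46.2 ± 15.9 (SD, n = 3) in the second set, also below it. Tcf7 was not analysed here.

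Most genes of V(D)J recombination were above background, and Dntt, Rag2 and Rag1 had the widest ranges between arrays. Of 13 members 11 (84.6%) were above background, against 54.2% of all genes, with a median percentile of 63.0. Above the stricter level were 6, a share near the 42.5% of all genes. Rag1 and Rag2, which encode the recombinase, read 552, 118 and 623 for Rag1 and 819.6, 137 and 799 for Rag2, both lowest on array 2 and therefore short of the stricter level. Dntt, which adds bases to the joins, read 754, 58.8 and 119.9, and its array 1 stood over 1 log2 unit above the others. In the second set array 2 read 66.8 for Dntt, under the background level of that array, and the gene was not called. Hmgb2, a DNA-bending cofactor of the recombinase, read 5121, 4443 and 5504. Of the end-joining genes, Xrcc6, which encodes Ku70, read 3528, 1489 and 2439, and Atm, a kinase that senses breaks, 562, 611 and 579, whereas Lig4, the ligase, read 81, 89.6 and 55.2 and Polm, a polymerase, 13.6, 7.69 and 16.1, and neither was above background on all 3 arrays.

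MHC class II presentation had accessory genes above background and the classical class II chains below it. Of 12 members 7 (58.3%) were above background, near the 54.2% of all genes, and 7 above the stricter level, with a median percentile of 62.1. Cd74, the invariant chain, read 1177, 909 and 807, and H2-Ob, a chain of the peptide exchange regulator H2-O, 1614, 847 and 631. Ciita, the master activator of the pathway, read 53, 40.6 and 48.9, and the chains H2-Ab1 and H2-Eb2 12.6, 5.25 and 4.69 for H2-Ab1 and 16.2, 10.7 and 21.9 for H2-Eb2, below background on each array. Cd74 had a mean of 398 ± 43.6 (SD, n = 3) in the second set and H2-Ab1 one of 35.4 ± 8.27 (SD, n = 3), with the same calls.

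Cell division and survival genes were bright. Of 31 cell cycle and replication genes 29 were above background and 28 above the stricter level, with a median percentile of 94.5. Pcna, the clamp of DNA polymerase, read 8287, 6988 and 9220.1, and the helicase subunits Mcm6 and Mcm7 5882, 5190.2 and 6613 for Mcm6 and 5662, 4354 and 6404 for Mcm7. The members below background were Ccnd1, which encodes cyclin D1, at 51.2, 35.1 and 55.1, and Cdkn2a, a tumour suppressor locus, at 33.4, 45.6 and 36.4. Of 14 Bcl2 family genes 13 were above background and 11 above the stricter level, with a median percentile of 74.7. The protective members Bcl2 and Mcl1 read 4250.1, 4976 and 3803 for Bcl2 and 3029, 2665 and 2388 for Mcl1, and Bid, which promotes death, 1463, 1851 and 1684. Bik, another death-promoting member, read 24.6, 16.5 and 12.4, below background.

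All 26 chromatin loop and lamina organisers were above both levels, with a median percentile of 92.4. Ctcf, the insulator protein that anchors loops, read 2041, 1633 and 1903. Lbr, the lamin B receptor that holds heterochromatin at the envelope, read 5584, 5409.6 and 5673. The lowest members, Mau2, which helps load cohesin, and Lmnb2, a lamin, read 691, 726 and 654 for Mau2 and 462, 416 and 497 for Lmnb2, still above the stricter level on the 3 arrays.

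The 3 arrays were not alike in every pathway. A range over 1 log2 unit was found in 69 of the 523 members (13.2%), against 691 of all 18193 genes (3.80%). The genes that 1 array held apart from both others by over 1 log2 unit were listed after their values were seen. Array 2 was low in 13 members (2.49%) and high in 7 (1.34%). Array 1 was high in 14 and low in 0, and array 3 was low in 4 and high in 0. Over all 18193 genes the order for array 2 was reversed, with 39 low (0.21%) and 96 high (0.53%). Array 1 was high in 42 and low in 14 of all genes, and array 3 was low in 35 and high in 6.

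Of the genes low on array 2 alone, Rag1 and Rag2 encode the recombinase, Il7r was 1 of 36 cytokine receptors, and Cxcr4 and Itgae were 2 of 28 homing receptors. The other low genes included Ets1, an Ets factor of lymphocytes, at 1311, 432 and 1275, and Zeb2, a repressor of dendritic and myeloid precursors, at 799, 291 and 709.8. Usp18, which restrains interferon signalling, read 69.5, 718 and 60.6, and array 2 was more than 3 log2 units above the other arrays' values. Of 19 interferon response genes 12 were highest on array 2 and 13 lowest on array 3, with median deviations from the gene means of 0.45 and -0.35 on the log2 scale. The summed intensity of the list was 5834, 8309 and 4343. Bst2, a tethering factor for virus particles, read 1648, 2630.1 and 1620.4, Irf1, an interferon regulatory factor, 1424, 814 and 690.3, and Ddx58, the RNA sensor RIG-I, 561, 1058 and 407. The lowest members were Ifit1 at 27, 30.7 and 26.3 and Gbp2 at 67.9, 68.7 and 73. Of the list 15 members were above background and 5 above the stricter level, with a median percentile of 53.8. Of the cell cycle genes 26 of 31 were lowest on array 2 and 20 were highest on array 3.

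Some of these genes were also read on array 2 of the EBF1 virus. There Usp18 read 636, against 59.6 and 163 on EBF1 arrays 1 and 3, so for this gene equal-numbered arrays were high together. Il7r read 1841 and Rag1 2954 there, each between the values of the other EBF1 arrays. Rag2 read 1218, 628 and 633 on the EBF1 arrays, with arrays 2 and 3 nearly equal. On control array 2 itself Il7r, Rag1, Rag2 and Cxcr4 were still above background, so their calls do not rest on leaving it out.

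Several genes of the OP9 feeder were highest on array 1. Of 23 stroma genes 5 were above background and 3 above the stricter level, with a median percentile of 36.1, and 9 were above background without array 2. Igfbp4, Acta2 and Pdgfrb, a growth factor binding protein, a smooth muscle actin and a platelet-derived growth factor receptor, were above both levels, at 3343, 4736 and 4079 for Igfbp4, 438, 445 and 523 for Acta2 and 626, 413 and 285 for Pdgfrb. The matrix genes Bgn, Fn1 and Col1a2, for biglycan, fibronectin and a collagen I chain, read 549.9, 7.98 and 73.1 for Bgn, 344, 15.3 and 62.8 for Fn1 and 376, 45.4 and 99.3 for Col1a2, highest on array 1 and lowest on array 2. Cxcl12, the chemokine made by stroma, read 128, 21.3 and 129. The defining genes Col1a1 and Dcn, for collagen I and decorin, read 17.1, 1 and 1 for Col1a1 and 3.21, 11.3 and 3.33 for Dcn, near the floor. In the second set they had means of 88.1 ± 9.67 and 78.9 ± 9.81 (SD, n = 3). Col1a1 was called above background there and Dcn was not, so the call of Col1a1 depends on which deposited set is read. Of the list 14 members were highest on array 1, and its summed intensity was 6547, 6193 and 5809. Igfbp4 was the largest part of this sum on each array and was lowest on array 1, unlike the matrix genes. The sum therefore does not show how far the other members were higher on array 1. The part of feeder RNA in the levels of other genes was not tested.

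**Figure D4:**
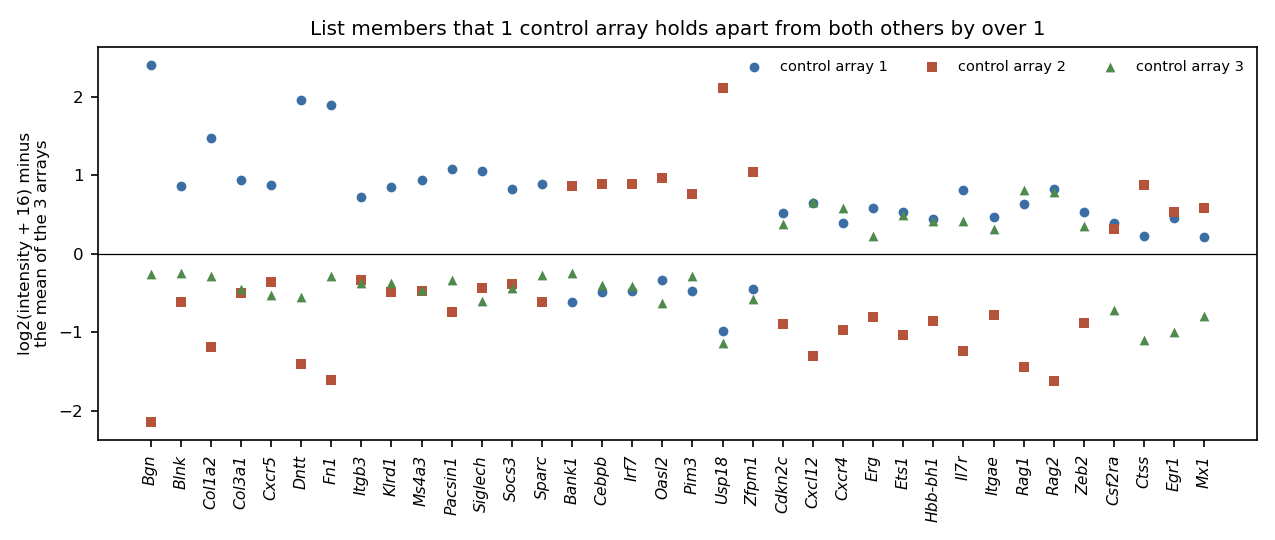
Deviation of log2(intensity + 16) from the mean of the 3 control arrays for each list member that 1 array holds apart from both others by over 1 (y axis), with genes on the x axis. Stroma genes such as Bgn and Fn1 and the gene Dntt are highest on array 1, Usp18 is highest on array 2, and Il7r, Rag1, Rag2 and Cxcr4 are lowest on array 2.

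With EBF1 added for 2 days, few of these levels differed enough to pass the test. In limma's test on log2(intensity + 16) of the 3 EBF1 against the 3 control arrays of the first set, 6 of the 523 members were higher and 0 lower after Benjamini-Hochberg adjustment over all 18193 genes at 0.05. The background was 10 genes, or 0.055%, called higher and 0.0% lower, and 1782 genes had an unadjusted p under 0.05, 126 of them members. Of the 6, 3 belonged to the pre-B-cell receptor list, 2 to the surface markers and 1 to the cytotoxic genes. Members that did not pass may still differ. The count over all genes depended on the arrays included: it was 2 without control array 1, 6 without control array 2 and 0 without control array 3. It was 11 without EBF1 array 1, 5 without EBF1 array 2 and 111 without EBF1 array 3, of which 91 were higher and 20 lower.

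EBF1 array 3 also stood apart in stroma genes. Of the 23 genes of the OP9 list 19 were highest on it among the EBF1 arrays. The summed intensity was 5449.7, 4918 and 18413 on EBF1 arrays 1, 2 and 3. On the control arrays it was 5809 to 6547, of which Igfbp4 was the largest part. Bgn read 899, 142 and 2727 on the EBF1 arrays, Fn1 502, 62.5 and 1962 and Cxcl12 143, 134 and 3366, with Col1a1 at 32.7, 3.51 and 132 and Dcn at 12.2, 7.73 and 7.94. The same array had the lowest EBF1 value of each of the 6 called genes. All 6 passed without it (limma, adjusted p from 0.00036 to 0.012). The part of stroma RNA in the other counts was not tested.

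Ms4a1 rose from 14.5, 22.4 and 19.3 on the control arrays to 7028, 5494 and 3029 on the EBF1 arrays, at least 82.3-fold with the control arrays set at their background level (log2 difference 7.15, SE 0.30, adjusted p = 0.0014). Vpreb1 rose from below background to 6613, 4108 and 2716, at least 70.6-fold (log2 difference 6.48, SE 0.34, adjusted p = 0.0022). Igll1 rose to 8918, 5633 and 4084, 37.2-fold over its low control level (log2 difference 5.08, SE 0.27, adjusted p = 0.0022). That rise rests on 1 of its 2 probe sets, of a design class whose probes can match other transcripts. The other read 21.7, 30.2 and 23.7 on the control arrays and 26.7, 35.6 and 34.6 on the EBF1 arrays, and the mean of both differed by 2.66 on the log2 scale (limma, adjusted p = 0.0018). Ms4a1 encodes CD20, and Vpreb1 and Igll1 both parts of the surrogate light chain, whose promoter windows are printed above. Gzma, a granule protease of killer lymphocytes, rose from 61.7, 38.2 and 38.9 to 8223, 6138 and 2877, at least 88.5-fold (log2 difference 6.43, SE 0.38, adjusted p = 0.0028), and its promoter window held 0 matches to the motif. Cd79b rose to 2223, 1527 and 523, at least 20.4-fold (log2 difference 5.61, SE 0.48, adjusted p = 0.022). Cd24a, the member already bright at baseline, rose to 10029, 9651 and 7706, 7.05-fold (log2 difference 2.80, SE 0.22, adjusted p = 0.015). In each of the 6 genes every EBF1 array stood above every control array. Equal-numbered control and EBF1 arrays deviated together, and with the replicate number as a block Cd79b and Cd24a missed the threshold (limma, adjusted p = 0.069 for both). Cd79b passed in 5 of 12 alternatives and Cd24a in 7 of 12. Cd79b was lost on leaving out any control array or EBF1 array 1 or 2, and with a constant of 64 (limma, adjusted p from 0.051 to 0.31 where lost). Without control array 3 none of the 6 passed (limma, adjusted p from 0.053 to 0.21).

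The bright regulators of the baseline were not called in this test. Ikzf1 differed by -0.12 (SE 0.10) and Sox4 by -0.14 (SE 0.12) on the log2 scale, with limma adjusted p of 0.77 for both. Hoxa9 differed by -0.46 (SE 0.13, limma adjusted p = 0.35) and Mycn by -1.84 (SE 0.34, limma adjusted p = 0.24). Foxo1 differed by 2.94 (SE 0.42, limma adjusted p = 0.14) and Rag1 by 2.73 (SE 0.64, limma adjusted p = 0.30). Il7r differed by 0.11 (SE 0.49, limma adjusted p = 0.97), and its control array 2 was the lowest of the 6 arrays. Foxo1 passed in 1 of the 12 alternatives and the other genes of this paragraph in none.

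**Figure D5:**
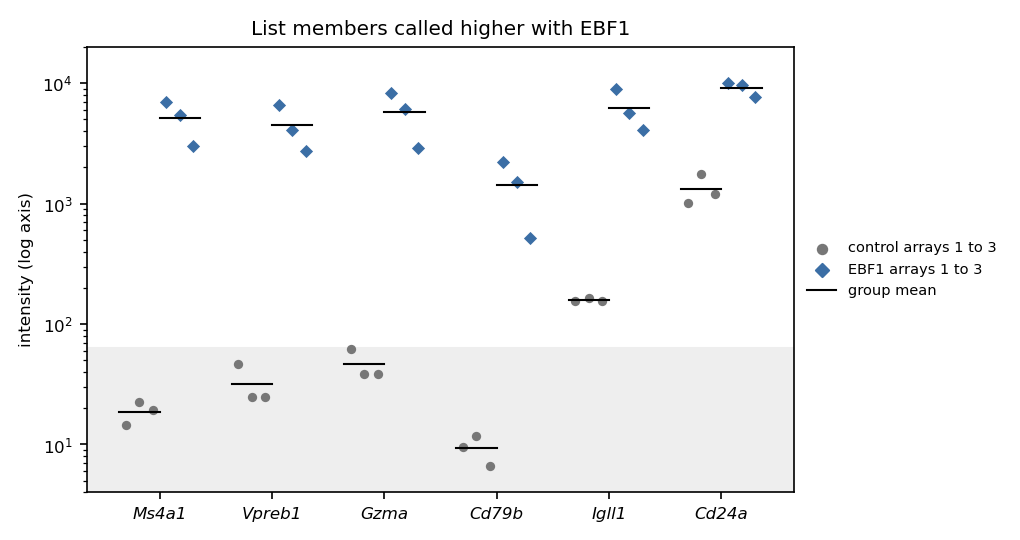
Intensity (log axis) of the 6 list members called higher with EBF1 on each control array (grey circles) and EBF1 array (blue diamonds) of the first set, in the order of arrays 1 to 3, with group means as bars. The grey area ends at the highest background level of the control arrays, 63.0; Ms4a1, Vpreb1, Gzma and Cd79b start inside it, Igll1 and Cd24a above it.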

How the data were processed

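The authors deposited 1 linear intensity per probe set and array. Per the labels' protocols, total RNA was turned into biotin-labelled cRNA for Affymetrix arrays. How the authors summarised and normalized the arrays is not named in any label or header used here. Of 45037 probe sets 34945 carried 1 gene symbol in the platform annotation, 932 several and 9160 none; 34741 matched the GRCm38.p6 gene table. The brightest probe set over all arrays stood for each of 18193 genes.

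Levels and ranks were read per array without further normalization, and calls used the levels given in the text. EBF1 and control arrays of the first set were compared with limma 3.58.1 in R 4.3.3 on log2(intensity + 16), with lmFit, eBayes and Benjamini-Hochberg adjustment over all genes. The fold of a gene below background in the controls is a lower bound, with each control array at its background level. The added constant of 16 makes a log2 change of a dim gene smaller than the change in intensity. The fit was tested on simulated data. Python 3.11.15 with pandas 2.3.3 and matplotlib 3.10.9 did the rest.

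The titles number the control and EBF1 arrays alike. Arrays of equal number deviated together from their group means, with correlations of 0.36, 0.64 and 0.39, each above the limit of 0.1, and were treated as pairs in 1 alternative; the reported fit has no block.

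The genes named are a fixed panel, the 3 highest and 2 lowest members of each list by mean percentile, the 10 members with the widest range, the 15 brightest genes and the members called with EBF1; Ets1, Zeb2 and a few others were named after their values were seen. The members and lists were chosen with earlier results of these data known. Alternatives changed the background level, the probe set, the constant, the normalization, the filter, the pairing and the arrays included. Promoter windows came from RefSeq for 3 of the 6 genes called with EBF1.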

Additional observations from a re-analysis of the deposited data

How the results depend on the processing

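The number of genes above background on the control arrays, 9862, kept within 1.5 times of this value under each of the 8 alternatives, from 7727 to 10363. Counts within the lists were less firm: 219 kept within that factor and 21 moved, most of them under the stricter background levels, which is why both counts are given. Of the percentile ranks of panel genes 189 stayed within 1 SD and 46 moved.

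The call of 10 genes with EBF1 in limma was 6 with a constant of 64, 21 among genes above background alone (10255 tested), and 5 with the replicate block, where pairing left 4 of the 6 members. Leaving out 1 array gave 0 to 111 calls; at 0, without control array 3, 1679 genes had an unadjusted p under 0.05. The cause of these shifts was not tested. Over the alternatives, 54 of the members' values kept their call and 18 lost it, and none reversed. With 3 arrays a group and dim genes near background, levels below background have no order. The labels name no batch.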

Other observations

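The 15 genes with the highest mean percentile on the control arrays were 14 genes of ribosomal proteins and Tpt1, a translation-linked growth protein. Rpl13a, of the large ribosomal subunit, read 12770.2, 12742 and 12977, and Tpt1, the last of them, 11126, 11305 and 11335. Others in this group were Rps29, Rpsa and Rps20 of the small subunit. At the top of the scale the arrays differed little: the range of Rpl13a over the 3 arrays was 0.03 on the log2 scale.

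Genes of unrelated tissues were not all dim. Lor, which encodes loricrin of the skin, read 1059, 936 and 1601, and Krt10, a skin keratin, 429, 321 and 319. Cela1, a pancreatic elastase, read 125, 204 and 129.6. These 3 were above the stricter level on all 3 control arrays, and were named after their values were seen. That level is a percentile of this same list, so on each array some of its genes lie above it by definition.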
